A study of Mus musculus with 7 samples.

Results

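The BTG and TOB antiproliferative genes were described here as 7 genes: Btg1, Btg2, Btg3, Tob1 and Tob2, with Pdcd4 and Ccng2, which belong to other families. They were taken as the rows of the count table whose Ensembl identifier maps to these symbols, a rule by name that holds no threshold on a measured value. All 7 were found among 51138 genes, and all 7 passed the filter on low counts that left 15954 genes for testing. The RNA came from regulatory T cells (Tregs), the CD4 T cells defined by the transcription factor Foxp3, sorted from the spleens of C57/BL6 mice whose Foxp3+ cells are marked by a red fluorescent protein (RFP-FoxP3+). The 4 FP samples came from mice given 20 ug of FP, which the labels give as IL-2/CD25, and the 3 PBS samples from mice given 100 uL of PBS. Spleens of both groups were taken at 72 h, and all mice of both groups carried the reporter. The age and sex of the mice are not given in the sources used here, nor whether each sample was 1 mouse or a pool, so the spread behind each p-value may be partly technical.

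BTG and TOB proteins share a domain through which they bind the Caf1-type catalytic subunits of the CCR4-NOT complex, the main enzyme that shortens the poly(A) tails of mRNAs, and so they promote mRNA decay. In resting T cells Btg1 and Btg2 are known for holding mRNA levels low, and Tob1 for restraining activation and proliferation. Pdcd4 binds the RNA helicase eIF4A and inhibits translation until S6 kinase marks it for degradation, and Ccng2 is an unconventional cyclin induced in cells that leave the cycle. Btg1 and Ccng2 are known as genes activated by FoxO factors, and Btg2 as one activated by p53.

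Total counts ran from 9956509 to 13429878 per library, and levels are given as CPM, counts scaled to the library size, with sizes adjusted by trimmed mean of M values (TMM) factors. Foxp3, Cd3e and Cd4 were detected in every library, and the summed level of 7 Treg markers was 5089 to 5901 CPM after FP and 3162 to 3520 CPM after PBS. Markers of other cells were also present. All 13 monocyte and macrophage markers tested were lower after FP, with a summed level of 24.1 to 127 CPM against 620 to 1526 CPM after PBS, and so were the 3 dendritic cell markers tested, at 11.7 to 15.8 CPM against 25.2 to 37.1 CPM. B cell markers summed to 26.6 to 35.5 CPM after FP and 27.1 to 48.2 CPM after PBS, with 2 of 7 tested called lower (Cr2 and Fcer2a) and 1 higher (Cd79b). Both plasma cell markers tested, Xbp1 and Prdm1, were higher, at a summed level of all listed plasma cell markers of 149 to 224 CPM against 86.3 to 94.9 CPM; effector Tregs are also known to express Prdm1. The NK cell and platelet markers tested, 1 each, and 1 of 2 neutrophil markers were lower, at summed levels of at most 12.2 CPM in any library.

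Btg1 and Btg2 moved together in these libraries, so the 250 bases before their RefSeq start sites (build GRCm38.p6) are shown, each 5′ to 3′ on the strand of the gene. The Btg1 window is chr10:96616751-96617000 on the plus strand, and the Btg2 window is chr1:134079156-134079405 on the minus strand. Capitals mark matches on either strand to 4 motifs searched with the sequences in view: TGTTTAC, a core of FoxO sites; TGACGTCA, the cyclic AMP response element; TATAAA, the TATA box; and CCAAT, whose other strand reads ATTGG.
Btg1: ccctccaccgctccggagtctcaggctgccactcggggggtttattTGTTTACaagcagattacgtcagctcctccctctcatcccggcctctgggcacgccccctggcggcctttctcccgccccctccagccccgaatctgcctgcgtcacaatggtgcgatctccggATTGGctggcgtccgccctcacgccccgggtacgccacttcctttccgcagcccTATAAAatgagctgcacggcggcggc
Btg2: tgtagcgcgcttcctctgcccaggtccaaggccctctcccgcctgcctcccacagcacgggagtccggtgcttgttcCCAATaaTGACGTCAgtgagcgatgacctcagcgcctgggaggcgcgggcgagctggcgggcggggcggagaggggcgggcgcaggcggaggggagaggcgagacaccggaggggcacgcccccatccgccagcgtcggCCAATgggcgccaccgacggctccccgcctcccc
The Btg1 window held TGTTTAC at -204, ATTGG at -80 and TATAAA at -26, counted in bases from the start site. The Btg2 window held TGACGTCA at -166 and CCAAT at -173 and -34. Among all 32851 mouse windows of this length, 3.17% held TGTTTAC, 1.55% TGACGTCA, 12.4% TATAAA and 33.8% CCAAT, each on either strand. The 9 windows of the 7 genes, of which Btg3 and Pdcd4 have 2 each, held TGTTTAC in Btg1 alone and TGACGTCA in Btg2 alone. TATAAA was also found in the Tob1 window, and CCAAT in those of Tob1, Btg3 and Pdcd4, while the windows of Tob2 and Ccng2 held none of the 4. A match describes these letters and not a bound site.

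Treatment with FP was compared with PBS to ask how expression in Tregs differed at 72 h. Btg1 and Btg2, the most abundant BTG genes of these cells, were lower after FP by about the same proportion, while Tob1, Tob2, Btg3, Pdcd4 and Ccng2 did not pass the test. Thus 2 of the 7 genes were called lower at an adjusted p under 0.05 and 0 higher, against 18.5% of all genes tested called lower and 21.0% called higher. In either direction 39.5% of all genes were called, so a share of 2 in 7 is near the background and is no result about the set. The median log2 fold change of the 7 genes was -0.20, beside -0.05 for all genes tested, and 5 of the 7 were below 0. The falls of Btg1 and Btg2 were small for these data: the median of all genes called lower was -0.87, and 10.97% of them fell less than Btg1 and 7.35% less than Btg2.

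Btg1 (ENSMUSG00000036478.8, chr10:96617006-96622809, plus strand) had 1276, 1078 and 1129 CPM in PBS replicates 1 to 3, and 956, 951, 770 and 844 CPM in FP replicates 1 to 4. Every FP library was below every PBS library, FP 3 was the lowest and PBS 1 the highest. The FP mean was 880 ± 89.7 CPM (SD, n = 4) and the PBS mean 1161 ± 103 CPM (SD, n = 3). The level fell by 24.2%, a log2 fold change of -0.40 (SE 0.11, 95% interval -0.65 to -0.15, adjusted p = 0.0161 by edgeR's quasi-likelihood test). The gene was represented by 8411 to 14709 counts per library, so counting error was small beside the spread. Its copies Btg1-ps1 and Btg1-ps2 had 0 counts in every library.

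Btg2 (ENSMUSG00000020423.6, chr1:134075170-134079120, minus strand) had 258, 224 and 230 CPM in PBS replicates 1 to 3, and 204, 215, 153 and 170 CPM in FP replicates 1 to 4. The groups did not overlap, although FP 2 and PBS 2 lay close together. The FP mean was 185 ± 29.0 CPM (SD, n = 4) and the PBS mean 238 ± 18.3 CPM (SD, n = 3). The level fell by 22.0%, a log2 fold change of -0.36 (SE 0.12, 95% interval -0.63 to -0.08, edgeR adjusted p = 0.0412). Groups that did not overlap in CPM, with FP below PBS, were found for 23.5% of all genes tested, and with FP above PBS for 23.2%.

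Both calls depended on single libraries. The Btg1 fold change was -0.30 without PBS 1 (edgeR adjusted p = 0.0687) and -0.42 without PBS 3 (0.0528), and Btg2 lost its call without FP 3, FP 4, PBS 1, PBS 2 or PBS 3, with adjusted p between 0.0614 and 0.140. Macrophage marker levels were highest in PBS 2; without that library the fold change was -0.45 for Btg1 (edgeR adjusted p = 0.0382) and -0.40 for Btg2 (0.0765). In bulk RNA, fewer cells of a type and less RNA per cell cannot be told apart, and the part of the macrophage markers in these falls was not tested. Summed immediate early genes, which respond to stimulation and to cell handling, were at 1840, 1182 and 1193 CPM in PBS 1 to 3 and at 1715, 1857, 1051 and 948 CPM in FP 1 to 4. PBS 1 was the highest PBS library for these genes and for Btg1 and Btg2. On TMM-scaled CPM, FP 1 and FP 2 were above FP 3 and FP 4 for all of them. Without scaling factors, CPM in FP 1 to 4 were 801, 806, 746 and 881 for Btg1 and 171, 182, 148 and 177 for Btg2. That order thus held for neither gene without the factors, since FP 4 was above FP 1 in both. The part of the immediate early gene differences in the values of Btg1 and Btg2 was not tested.

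**Figure D1:**
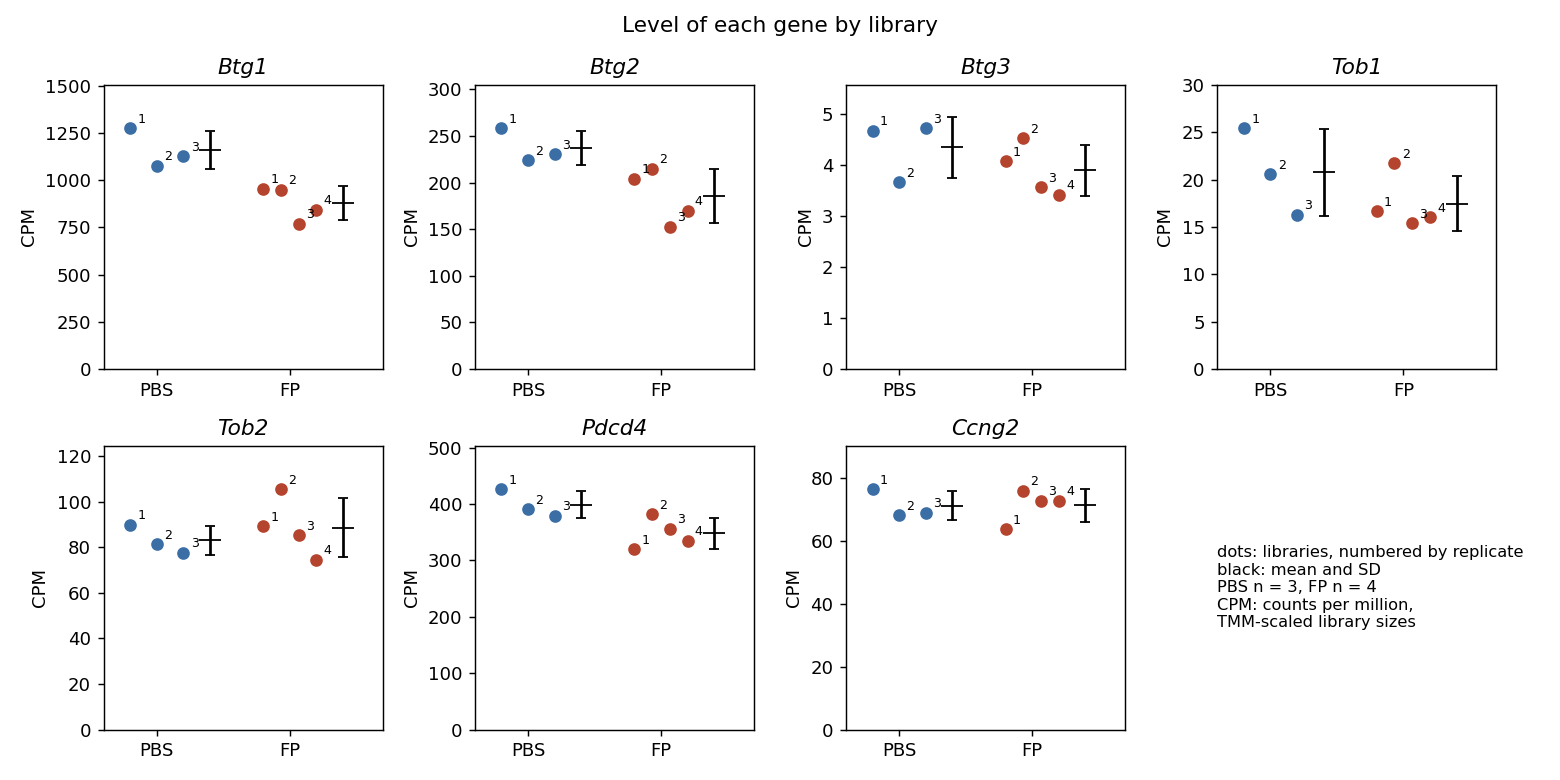
Level of each of the 7 genes in CPM on TMM-scaled library sizes, on linear axes from 0, for 3 PBS libraries (blue) and 4 FP libraries (red). Dots are libraries numbered by replicate, and black bars are mean and SD; Btg1 and Btg2 are the genes whose groups do not overlap.

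The TOB genes were less abundant. Tob1 (ENSMUSG00000037573.5, chr11:94211454-94215495, plus strand), the T cell restraint factor, had 25.4, 20.6 and 16.3 CPM in PBS replicates 1 to 3 and 16.7, 21.8, 15.4 and 16.05 CPM in FP replicates 1 to 4. The groups overlapped, and PBS 1 stood above the other libraries. The log2 fold change was -0.25 (SE 0.18, 95% interval -0.65 to 0.15, edgeR adjusted p = 0.294), so a fall as large as that of Btg1 lay inside the interval.

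Tob2 (ENSMUSG00000048546.7, chr15:81848272-81858796, minus strand), its close relative, had 89.9, 81.4 and 77.5 CPM in PBS replicates 1 to 3 and 89.2, 105, 85.2 and 74.5 CPM in FP replicates 1 to 4. FP 2 was the highest library and FP 4 the lowest, so the FP range enclosed the PBS range. The log2 fold change was 0.09 (SE 0.12, 95% interval -0.17 to 0.36, edgeR adjusted p = 0.554).

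Btg3 (ENSMUSG00000022863.14, chr16:78332637-78377192, minus strand), also called Ana, was near the limit of precise measurement, with 38 to 54 counts per library. Its levels were 4.68, 3.67 and 4.73 CPM in PBS replicates 1 to 3 and 4.08, 4.53, 3.57 and 3.42 CPM in FP replicates 1 to 4. The groups overlapped, with a log2 fold change of -0.16 (SE 0.21, 95% interval -0.63 to 0.31, edgeR adjusted p = 0.577). Exons of Btg3 share 695 bases with Cxadr on the opposite strand, which had 32 to 70 counts after FP and 81 to 109 after PBS; without a known strand setting the reads of the overlap cannot be assigned. Btg4, the remaining BTG gene, had 0 counts in every library, which allows up to 3 counts, or 0.214 to 0.322 CPM.

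Pdcd4 (ENSMUSG00000024975.12, chr19:53892231-53929860, plus strand), the inhibitor of eIF4A, had 427, 391 and 380 CPM in PBS replicates 1 to 3 and 320, 382, 357 and 335 CPM in FP replicates 1 to 4. Only FP 2, at 382 CPM, was above a PBS library, that being PBS 3. The FP mean was 348 ± 27.2 CPM (SD, n = 4) and the PBS mean 399 ± 24.6 CPM (SD, n = 3). The log2 fold change was -0.20 (SE 0.09, 95% interval -0.41 to 0.01, edgeR adjusted p = 0.123).

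Ccng2 (ENSMUSG00000029385.14, chr5:93267257-93276231, plus strand), the unconventional cyclin, had 76.5, 68.1 and 69.0 CPM in PBS replicates 1 to 3 and 63.7, 76.0, 72.8 and 72.7 CPM in FP replicates 1 to 4. The groups overlapped: PBS 1 was the highest library, FP 1 the lowest, and the other FP libraries lay among the PBS libraries. Its log2 fold change was 0.00 (SE 0.09, 95% interval -0.20 to 0.21, edgeR adjusted p = 0.981), an interval that leaves out a fall of the size fitted for Btg1 or Btg2. The difference between the genes was not tested.

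How far below 0 the set lay depended on the scaling of the libraries. With library size alone, or with upper-quartile factors, 4 of the 7 genes were called lower (Btg1, Btg2, Tob1 and Pdcd4), against 31.6% and 30.2% of all genes. The shift was common to all genes: their median log2 fold change went from -0.05 with TMM factors to -0.31 with library size alone, -0.25 with upper-quartile factors and -0.01 with DESeq2 size factors. Of all genes, 3355 were called higher and 2953 lower with TMM factors, 2023 and 5046 with library size alone, and 2399 and 4823 with upper-quartile factors. In shares of all counts the groups of 6 of the 7 genes did not overlap, all 6 lower after FP, with Tob2 the exception. On that measure 35.8% of all genes did not overlap with FP below PBS and 14.5% with FP above. As CPM without scaling factors, Btg1 stood at 1366, 1205 and 1295 in PBS 1 to 3 and 801, 806, 746 and 881 in FP 1 to 4.

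A scaling shifts all genes by nearly the same amount, so values relative to the median of all genes agree between scalings by construction; they place each gene among all genes and lend its call no support. Over TMM, DESeq2, upper-quartile and library-size scaling, and library size without genes over 1% of the counts, Btg1 lay at -0.36 to -0.35 and Btg2 at -0.32 to -0.31. Tob1 lay at -0.21 to -0.20, Pdcd4 at -0.15 and Btg3 at -0.12 to -0.11. Tob2 at 0.13 to 0.15 and Ccng2 at 0.05 to 0.06 were above the median throughout, although their own log2 fold changes turned negative with library size alone (-0.18 and -0.26) and with upper-quartile factors (-0.12 and -0.20).

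**Figure D2:**
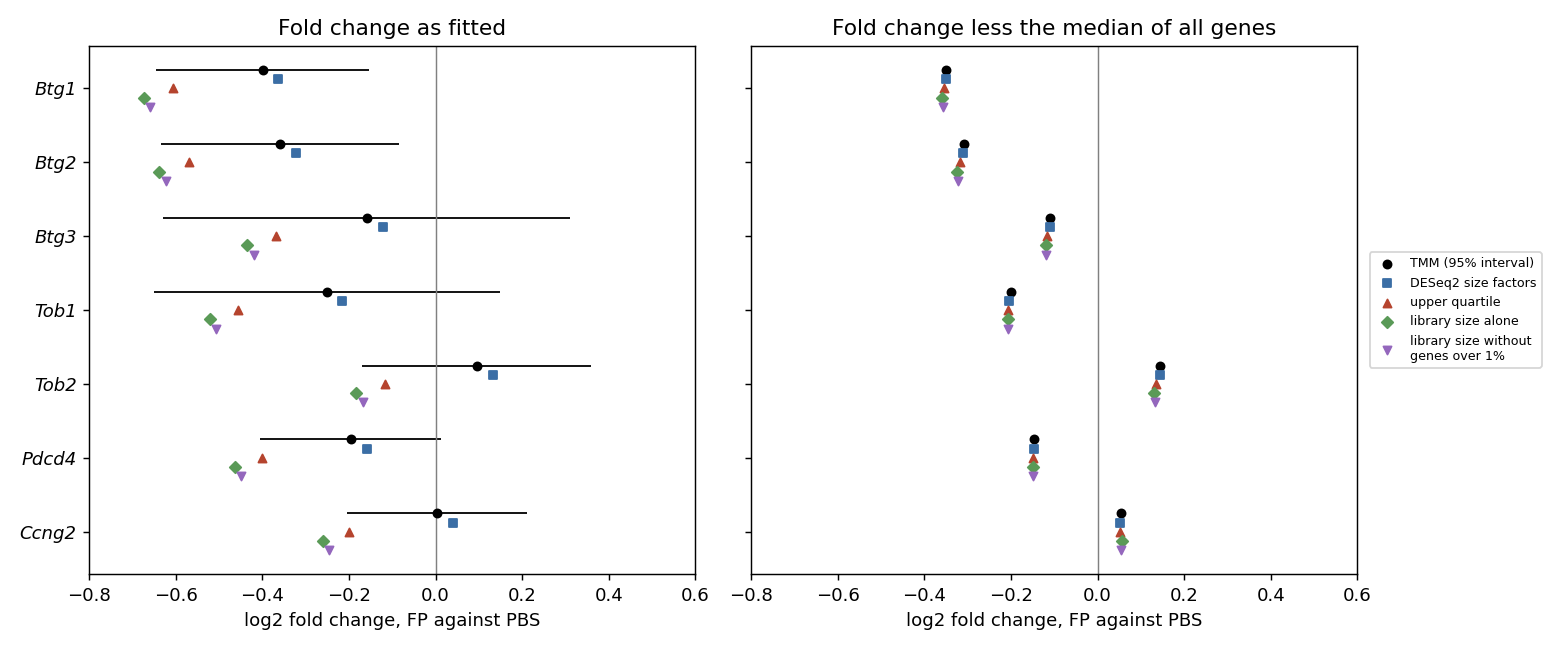
Log2 fold change of FP against PBS for the 7 genes under 5 scalings of the libraries, as fitted (left, with the 95% interval for TMM) and after subtracting the median of all genes tested (right). On the left Tob2 and Ccng2 change sign with the scaling; on the right the scalings coincide by construction, with Btg1 at -0.36 to -0.35.

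Levels per length of exon, in RPKM (CPM per kilobase of exon), set the genes in nearly the same order in both groups. After PBS, Btg1 led at 220 ± 19.5 RPKM (SD, n = 3), followed by Pdcd4 at 127 ± 7.85 and Btg2 at 86.6 ± 6.66 RPKM. Ccng2 at 13.05 ± 0.844 and Tob2 at 12.4 ± 0.954 RPKM overlapped, and Tob1 at 9.08 ± 2.00 and Btg3 at 1.09 ± 0.150 RPKM came last. After FP, the levels were 167 ± 17.0 RPKM for Btg1 (SD, n = 4), 111 ± 8.68 for Pdcd4 and 67.6 ± 10.6 for Btg2. Tob2 at 13.3 ± 1.93 and Ccng2 at 13.1 ± 0.968 RPKM overlapped again, above Tob1 at 7.63 ± 1.27 and Btg3 at 0.972 ± 0.126 RPKM. All neighbours in these orders other than Tob2 and Ccng2 had ranges that did not overlap. In these sorted cells Btg1 was thus the most abundant mRNA of the set per length of exon in both groups.

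Paralogs within 1 library share its scaling, so 4 ratios of paralogs were tested by a two-sided exact permutation over the 35 assignments of the libraries, whose smallest p is 0.0286. The log2 ratio of Btg1 to Btg2 counts was 2.30, 2.27 and 2.29 in PBS 1 to 3 and 2.23, 2.15, 2.33 and 2.31 in FP 1 to 4. The difference was -0.03 (exact p = 0.657, adjusted over the 4 pairs 0.876), and the FP range of 2.15 to 2.33 enclosed the PBS range. The log2 ratio of Tob1 to Tob2 was -1.82, -1.98 and -2.25 in PBS 1 to 3 and -2.42, -2.28, -2.47 and -2.21 in FP 1 to 4. All FP libraries but FP 4 were below all PBS libraries, with a difference of -0.33 (exact permutation p = 0.0571, adjusted 0.171).

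The partner paralogs of the deadenylase were compared in the same way. Cnot7 and Cnot8 encode the Caf1-type subunits that bind BTG and TOB proteins, and their log2 ratio averaged -0.155 ± 0.242 in the FP libraries (SD, n = 4) against 0.189 ± 0.163 in the PBS libraries (SD, n = 3), with an exact permutation p = 0.0857 (adjusted 0.171). FP 4, at 0.204, lay among the PBS libraries. Cnot7 exons share 247 bases with Zdhhc2 on the opposite strand, which had 3765 counts in all against 3712 for Cnot7. Without a known strand setting the reads of this overlap cannot be assigned. Cnot6 and Cnot6l, which encode the Ccr4-type subunits, had a log2 ratio of -0.655 ± 0.137 after FP and -0.660 ± 0.0789 after PBS, with a difference of 0.00 (exact permutation p = 0.943).

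**Figure D3:**
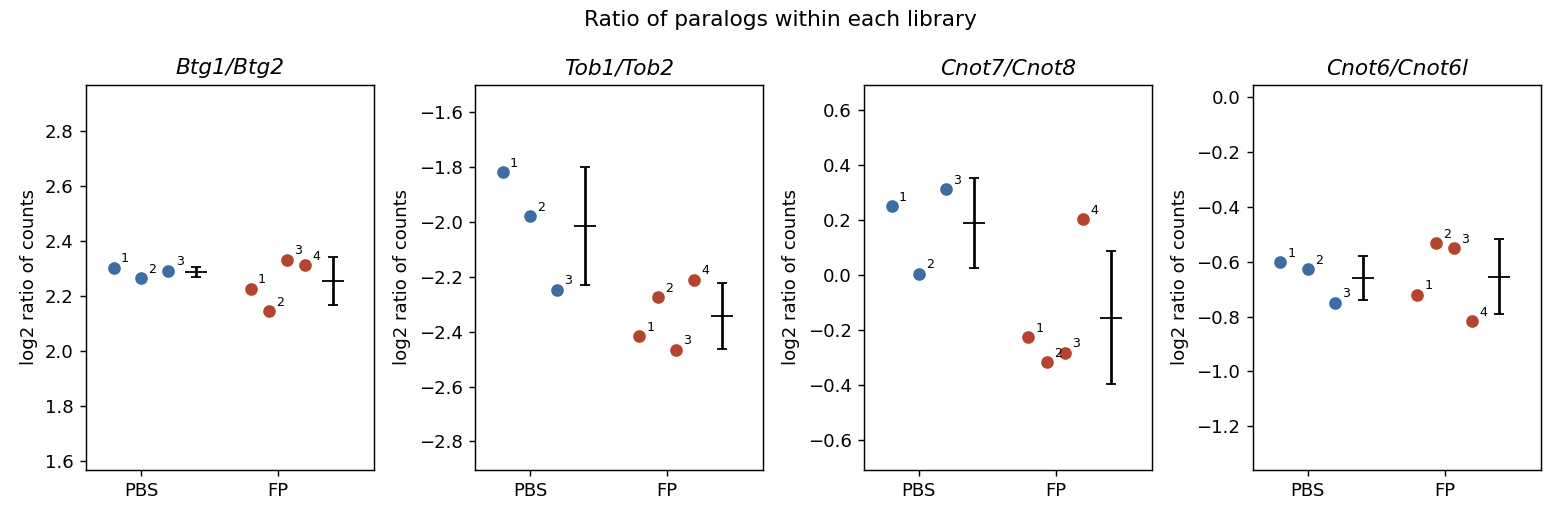
Log2 ratio of the counts of 2 paralogs within each library, for 3 PBS libraries (blue) and 4 FP libraries (red), numbered by replicate, with mean and SD in black; each axis spans the same width. Btg1 to Btg2 stays between 2.15 and 2.33, while Tob1 to Tob2 and Cnot7 to Cnot8 are lower in most FP libraries, with exact permutation p = 0.0571 and 0.0857.

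The CCR4-NOT genes, through which BTG and TOB proteins act, were not called lower alongside Btg1 and Btg2 with TMM factors. Among all genes tested, 21.0% were called higher and 18.5% lower. Of 11 CCR4-NOT genes tested, 4 rose, 0 fell and 7 remained below the threshold. Their median log2 fold change was 0.20 beside -0.05 for all genes; with library size alone the median was -0.07, Cnot9 was the 1 gene called higher and Cnot10 the 1 called lower. The list median lay 0.25 above that of all genes with TMM factors. Cnot9, a subunit of the complex, rose, with a PBS mean of 38.9 ± 3.41 CPM (SD, n = 3), an FP mean of 70.2 ± 6.82 CPM (SD, n = 4) and a log2 fold change of 0.85 (edgeR adjusted p = 0.000275). Its exons share 134 bases with Usp37 on the opposite strand, which had 6608 counts in all against 4568 for Cnot9. The reads of this overlap cannot be assigned without a known strand setting. Cnot6 rose by 0.47 and Cnot6l by 0.46 on the log2 scale (edgeR adjusted p = 0.00208 and 0.00224), and Cnot4, a ubiquitin ligase of the complex, by 0.31 (0.0162). Those 3 calls were lost with library size alone, and that of Cnot4 also with upper-quartile factors and without PBS 2 or PBS 3. Cnot1, the main scaffold, had 501 ± 12.1 CPM after FP and 453 ± 15.8 CPM after PBS, and neither it nor Cnot2, Cnot3, Cnot7, Cnot8, Cnot10 and Cnot11 passed.

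Other genes of poly(A) tail and mRNA decay control moved in both directions. Among all genes tested, 39.5% were called in either direction, 21.0% higher and 18.5% lower. Of 8 tail enzymes and tail-binding proteins, Pabpc1, the major cytoplasmic poly(A)-binding protein, rose (log2 fold change 0.51, edgeR adjusted p = 0.00756), while Pan2 and Pan3, the subunits of the second cytoplasmic deadenylase, fell (-0.69 and -0.33; 0.0147 and 0.0166) and 5 did not pass. The Pabpc1 call was lost with library size alone, and each of the 3 calls was lost without at least 1 library. Of 6 proteins that bind AU-rich elements, the decay factors Zfp36l1 and Zfp36l2 fell by 0.97 and 0.64 on the log2 scale (edgeR adjusted p = 7.23e-05 and 0.00311). Khsrp, Hnrnpd and Elavl1 were higher, at 0.68, 0.53 and 0.24, and Zfp36 did not pass; the Hnrnpd call was lost with library size alone. Elavl1, named after its values were seen, lost its call with upper-quartile factors, without the filter on low counts and without FP 2, FP 3, PBS 2 or PBS 3, and turned to -0.03 with library size alone. Of 6 partners of BTG and TOB proteins in arginine methylation and SMAD signalling, Prmt1 rose (0.67, edgeR adjusted p = 0.0114), Smad3 rose (0.55, 0.000884), Smad1 fell (-0.37, 0.0363) and 3 did not pass. The Smad1 call was lost under most alternatives, that of Smad3 with library size alone and that of Prmt1 without PBS 3.

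Genes around Pdcd4 were read in the same fit. Of 8 genes of the eIF4F complex and eIF4A cofactors, 4 rose and 1 fell, 3 did not pass, and the median was 0.33; with library size alone 2 were higher and 2 lower, and the median was 0.05. Without PBS 3, Eif4h was the 1 gene of this list called higher. Across all genes tested, 21.0% were called higher and 18.5% lower. Eif4a1, the helicase that Pdcd4 inhibits, had a mean of 508 ± 152 CPM in FP libraries (SD, n = 4) against 285 ± 19.4 CPM in PBS libraries (SD, n = 3), a log2 fold change of 0.83 (edgeR adjusted p = 0.0118, 0.0538 without PBS 3 and 0.0594 without the filter on low counts). Eif4a2, its paralog, fell by 0.65 on the log2 scale (edgeR adjusted p = 0.000883). Eif4h, Eif4e and Eif4g1 rose by 0.80, 0.59 and 0.40. Eif4g1 lost its call with library size alone, with upper-quartile factors and without PBS 3, and Eif4e, named after its values were seen, with library size alone and without PBS 3. Of 6 genes tested that act in the degradation of Pdcd4, Rbx1 rose (0.85, edgeR adjusted p = 0.00465), Btrc, the F-box protein that recognises phosphorylated Pdcd4, fell (-0.60, 0.00235), and 4 including S6 kinase Rps6kb1 did not pass. Fbxw11 was also called higher without FP 4 or without PBS 1. Rps6kb2 is listed at 0 in every library; its exons share 1224 bases with Ptprcap on the opposite strand, which had 1 count in all, and whether these counts reflect expression was not tested.

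Several cell cycle genes related to Ccng2 were called higher, although none was compared with it directly. Among all genes tested, 21.0% were called higher. Ccng1, the other cyclin G and a p53 target, had 121, 106 and 106 CPM in PBS 1 to 3 and 191, 195, 132 and 150 CPM in FP 1 to 4. Every FP library was above every PBS library, with a log2 fold change of 0.59 (edgeR adjusted p = 0.00781), while Ccni passed only without PBS 1. Of 5 genes tested for the PP2A phosphatase subunits that bind cyclin G proteins, Ppp2ca, Ppp2r5c and Ppp2r5d rose by 0.53, 0.52 and 0.33 on the log2 scale, calls that were all lost with library size alone, and 2 did not pass. The Ppp2r5d call was also lost with upper-quartile factors and without FP 2, FP 3 or any PBS library. Among D and E cyclins, which drive entry into S phase, Ccne2 rose by 2.31 and Ccne1 by 1.80 (edgeR adjusted p = 0.00021 and 0.000129), and Ccnd2 and Ccnd3 by 0.53 and 0.46, both lost with library size alone. The Ccnd3 call was also lost with upper-quartile factors. Ccnd1, at 4.48 ± 0.526 CPM after FP and 6.25 ± 0.666 CPM after PBS, did not pass. Its exons share 1100 bases with LTO1 on the opposite strand, which had 1938 counts in all against 428 for Ccnd1. Ccne2 exons share 609 bases with Ints8 on the opposite strand, which had 5839 counts in all against 1926 for Ccne2. Without a known strand setting the reads of these overlaps cannot be assigned.

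Other genes known as targets of FoxO factors or p53, regulators known for Btg1, Btg2 and Ccng2, were read as lists. Whether these regulators acted on any of the genes was not tested. Of 15 FoxO-regulated genes, 10 fell and 0 rose, 5 did not pass, and the median was -0.33. Of all genes tested, 18.5% were called lower and 21.0% higher. With DESeq2 size factors 7 of the list were lower and 1 higher, and without PBS 1, 7 were lower and 2 higher. Il7r, the interleukin 7 receptor chain, fell, with a PBS mean of 170 ± 10.7 CPM (SD, n = 3), an FP mean of 75.2 ± 17.2 CPM (SD, n = 4) and a log2 fold change of -1.17 (edgeR adjusted p = 0.000298). Insr, Pik3ip1 and Ccr7 fell by 0.96, 0.93 and 0.80 on the log2 scale. Klf2 and S1pr1, which act in T cell trafficking, were among those that did not pass. Of the factors themselves Foxo4 fell (-0.55, edgeR adjusted p = 0.00505) and Foxo1 fell (-0.26, 0.0387), the latter losing its call under most alternatives, and Foxo3 did not pass. Btg1 and Ccng2, known as FoxO targets, are not on the list. Btg1 fell, while Ccng2, with a log2 fold change of 0.00, did not pass.

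Of 15 p53-regulated genes tested, 8 rose and 2 fell, 5 did not pass, and the median was 0.38; with library size alone 3 were higher and 2 lower. Leaving out FP 2, PBS 2 or PBS 3 left 4 called higher, and leaving out PBS 1 left 5. Across all genes tested, 21.0% were called higher and 18.5% lower. Cdkn1a, the cyclin-dependent kinase inhibitor p21, rose, with a PBS mean of 0.528 ± 0.235 CPM (SD, n = 3), an FP mean of 12.9 ± 3.49 CPM (SD, n = 4) and a log2 fold change of 4.60 (edgeR adjusted p = 8.06e-06). Phlda3 and Ei24 rose by 1.53 and 0.51 on the log2 scale, and Ccng1 as given above; the Ei24 call was lost with library size alone. The 2 that fell, named after their values were seen, were Bbc3 (-0.98, edgeR adjusted p = 0.0089) and Sesn1 (-0.26, 0.0236), the latter losing its call with DESeq2 size factors and without FP 3 or any PBS library. Sesn1 is also counted among the FoxO-regulated genes that fell. Btg2, itself known as a p53 target, fell.

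Of 14 genes linked to T cell quiescence, 7 fell and 0 rose, 7 did not pass, and the median was -0.22; Klf2, Cdkn1b, Pik3ip1 and Foxo1 also stand in the FoxO lists. Without PBS 2 or without PBS 3, 4 were called lower. Across all genes tested, 18.5% were called lower and 21.0% higher. Bach2, a transcriptional repressor that restrains effector programmes, fell, with a PBS mean of 190 ± 4.16 CPM (SD, n = 3), an FP mean of 113 ± 8.70 CPM (SD, n = 4) and a log2 fold change of -0.75 (edgeR adjusted p = 0.000121). Tcf7 and Foxp1, transcription factors of naive and resting T cells, fell by 0.89 and 0.58 on the log2 scale. Of 14 immediate early genes tested, Egr1, Egr2 and Egr3, which follow T cell receptor signals, fell by 0.72, 0.61 and 0.89. The other 11, including Fos, Jun and Myc, did not pass, and the Egr2 call was lost without PBS 1 or PBS 2. With 18.5% of all genes tested called lower, 3 in 14 is near the background and is no result about this list. Jund had 1 count in all libraries together and did not enter the test; Gm11175 overlaps 877 bases of its exon on the opposite strand, and whether the low count reflects expression was not tested.

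**Figure D4:**
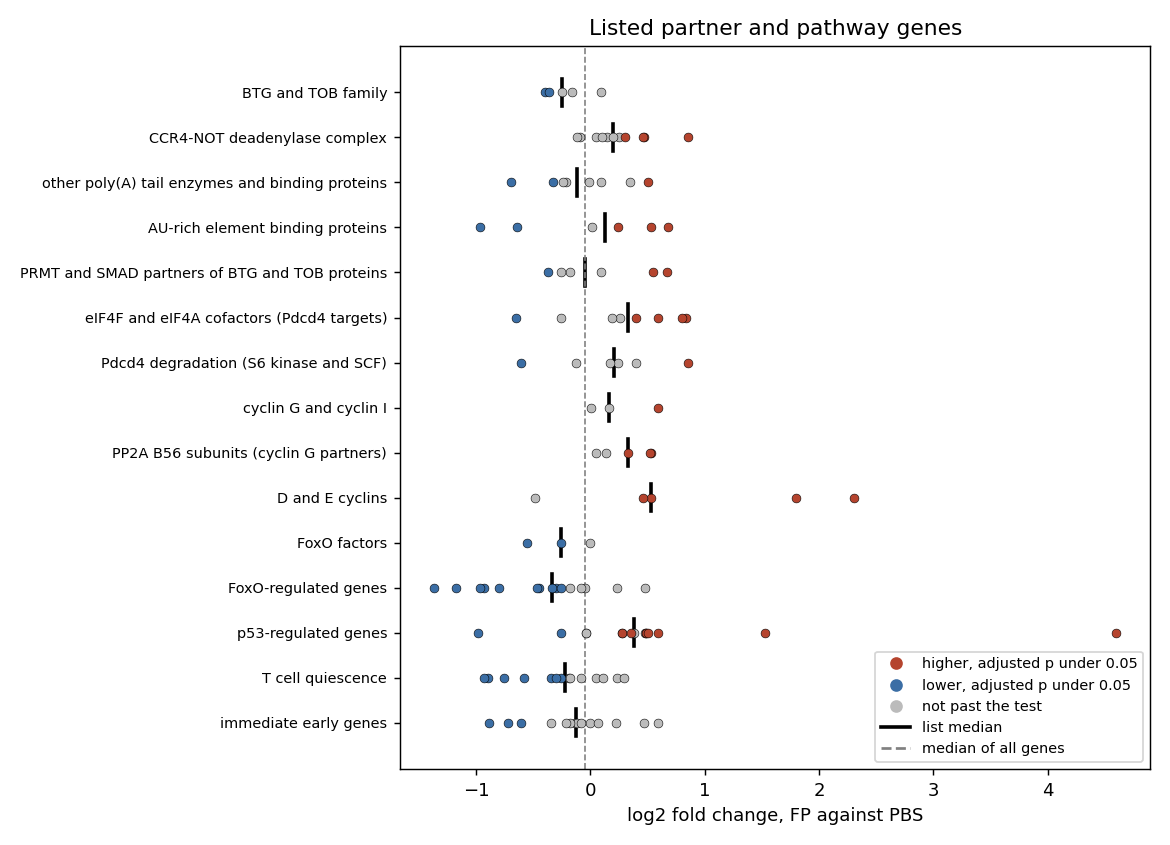
Log2 fold change of FP against PBS on TMM-scaled libraries for each tested gene of the 15 lists (dots; red higher and blue lower at an adjusted p under 0.05, grey not past the test), with each list's median (black bar) and the median of all genes tested at -0.05 (dashed). The medians are 0.20 for the CCR4-NOT complex, which turns to -0.07 with library size alone, and -0.33 for FoxO-regulated genes.

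The genes whose pattern over the 7 libraries was most like that of each member were found by the root-mean-square distance between centred log2 CPM profiles, among 8555 genes of at least 10 CPM. They were Siah1a (distance 0.0548) and Fyttd1 (0.0549) for Btg1, and Zfp110 (0.0372) and Fam220a (0.0379) for Btg2. They were Ldhb (0.0831) and Cbx8 (0.0971) for Tob1, Mogs (0.0320) and Smg8 (0.0326) for Tob2, and Prg4 (0.0421) and Slc14a1 (0.0474) for Btg3. Pdcd4 was nearest to Hif1an (0.0257) and Zc3h12d (0.0265), and Ccng2 to Rab21 (0.0280) and Asb7 (0.0351). The median distance of all candidates was 0.328 for Btg1 and 0.241 for Ccng2. Btg1 and Btg2 were not among each other's candidates, since members were left out.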

How the data were processed

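RNA-seq counts of 7 Treg libraries (4 FP, 3 PBS) were used. Per the labels and the series design text, libraries were made from 25 ng of total RNA after ribosomal RNA removal and sequenced on a NextSeq 500. Per the same sources and the submitters' processing notes, reads were mapped to GRCm38 with STAR (2.5.0, or 2.5.0b) and counted per GENCODE M13 gene with featureCounts 1.5.0. No source used here gives the strand setting. The authors deposited raw counts without normalization for 51138 identifiers, of which 762, holding at most 0.144% of a library's counts, had no symbol. Columns were matched to samples by name.

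Counts were tested with edgeR 4.0.16 in R 4.3.3: filterByExpr, TMM factors, a robust quasi-likelihood fit of FP against PBS, Benjamini-Hochberg adjustment over 15954 genes, threshold 0.05. CPM and RPKM use TMM-scaled library sizes; exon lengths and coordinates come from a GENCODE annotation of GRCm38 newer than M13. The paralog ratios used a prior count of 0.5, and profiles a prior count of 2. Intervals and floors of 3 counts cover counting error or the fit alone.

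The members and lists were chosen with earlier results of these data known, and lists were described by counts and medians. From each list the genes past the threshold were named, up to 4 with the smallest p, with all CCR4-NOT genes and 2 nearest profiles per member. The values of 1 listed gene are not reported here. Of these 43 list genes and 4 more named as called after their values were seen, exons of 20 overlap another gene, in 7 cases one with over 10% of their counts. Alternatives were other scalings, filters, limma-voom (limma 3.58.1), DESeq2 1.42.0, a replicate block and leaving out each library. The scripts were tested on simulated data, in which far fewer genes differed than here. There the fit called 9 of 67 genes set to a 1.5-fold change, 26 of 67 at 2-fold and 58 of 66 at 4-fold. Small changes were thus often missed, and a gene that did not pass is not shown to be unchanged.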

Additional observations from a re-analysis of the deposited data

Results flagged for a closer look

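In 3 of the 58 groups of FP values checked, 1 library stood apart from the other 3 by more than Dixon's 95% critical value, where chance gives about 1 group in 20. Cnot9 was at 60.0 CPM in FP 4, below 72.4 to 74.3 CPM in the other FP libraries and still above every PBS library. Cnot4 was at 107 CPM in FP 1, above 93.1 to 94.8 CPM in the others. Phlda3 was at 3.82 CPM in FP 2, above 2.38 to 2.58 CPM in the others. None of the 7 BTG, TOB, Pdcd4 and Ccng2 genes was marked in this way.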

How the results depend on the processing

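The numbers of genes called lower were 4823 with upper-quartile factors, 5046 with library size alone and 5154 with library size without genes over 1% of the counts, a scaling chosen after seeing the data; the latter pair gave 2023 and 2130 genes higher. Leaving out each library gave 1774 to 3389 genes lower and 2314 to 3888 higher, the lowest without PBS 3, and 1869 lower without PBS 2. Of the 7 members, 1 was called lower with DESeq2 size factors or the DESeq2 test, 4 with upper-quartile factors, library size alone or the added scaling, and 0 to 2 with a library left out (0 without PBS 1 or PBS 3). Listed partner genes called higher were 30, but 11 with library size alone, 16 with the added scaling, 41 with the replicate block and 18 to 34 with a library left out. Those lower were 27, but 39 with upper-quartile factors, 40 with library size alone, 43 with the added scaling and 18 to 25 with a library left out. The log2 fold change of Btg2 was -0.32 with DESeq2 size factors (edgeR adjusted p = 0.0664) and with the DESeq2 test (0.0867). With upper-quartile factors, library size alone and the added scaling, Tob1 was at -0.46, -0.52 and -0.51 and Pdcd4 at -0.40, -0.46 and -0.45, all past the threshold. Tob2 turned to -0.12, -0.18 and -0.17 and Ccng2 to -0.20, -0.26 and -0.25 under the same scalings, none past it. With a library left out, Btg1 ranged from -0.45 to -0.30, Btg2 from -0.44 to -0.27 and Ccng2 from -0.0272 to 0.0838. The log2 ratio difference ranged from -0.0584 to 0.0043 for Btg1 to Btg2, from -0.44 to -0.23 for Tob1 to Tob2, from -0.46 to -0.28 for Cnot7 to Cnot8 and from -0.0405 to 0.0584 for Cnot6 to Cnot6l. Of 752 values under these settings of 47 list genes named as called, 668 kept their call and direction, 82 lost the call and 2 reversed, both of Elavl1 (-0.0267 with library size alone and -0.0126 with the added scaling).

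Replicate numbers were not treated as pairs, as no pairing is stated and FP 4 has no partner. In the fit with replicate number as a block, FP 4 therefore adds nothing to the fitted difference between FP and PBS. Deviations of same-numbered libraries correlated at 0.22, 0.07 and 0.10, and those of differently numbered libraries at -0.33 to 0.39. So few correlations cannot show whether the samples were paired. With the replicate block, Btg1 was at -0.38 (edgeR adjusted p = 0.0142), Btg2 at -0.33 (0.0187) and Ccng2 at -0.0070, and 4122 genes were higher and 3748 lower. With it, 2 quiescence-linked and 2 FoxO-regulated genes were called higher, against 0 in the TMM fit of all 7 libraries without it. Those numbers were 1 and 1 without FP 4, and 1 and 2 without PBS 1, in fits without the block. Depth limits Btg3 at 38 to 54 counts. The cause of these changes was not tested.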
